A study of Homo sapiens with 12 samples.

Results

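The genes described here are 10 alveolar lineage genes: the transcription factor NKX2-1, the surfactant proteins SFTPB, SFTPC and SFTPD, the protease NAPSA, the lamellar body proteins ABCA3 and LAMP3, and HOPX, AGER and AQP5, which are used as markers of alveolar type 1 cells. They were taken by symbol, and each matched 1 of the 62754 Ensembl identifiers of the deposited table. Their transcripts were counted in 12 libraries of PC9, a human lung adenocarcinoma cell line that carries a mutant EGFR, in 4 groups of 3 replicate cultures. All 12 libraries came from PC9 cells of 1 subclonal origin, grown in RPMI-1640 with 10% serum, and the labels put them in 1 batch. The untreated WT group held TDP1 wild-type cells without drug. The DTC group (drug-tolerant cells) held wild-type cells kept for 7 days in 1 µM erlotinib, an inhibitor of the EGFR kinase, and the DTEC group (drug-tolerant expanded cells) held wild-type cells kept for 28 days in the same dose. The KO group held cells of KO2, a TDP1 knockout line, without drug, and no other knockout line was analysed here. The cultures of a condition were split from 1 flask and then grown apart, so p-values measure the spread between sister cultures only. In bulk RNA of this kind, fewer cells of a type and less RNA per cell cannot be told apart.

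In the lung, alveolar type 2 cells make surfactant, a film of phospholipids and proteins that lowers surface tension, and alveolar type 1 cells form the thin surface for gas exchange. NKX2-1 is the homeodomain factor that sets lung epithelial fate, and the surfactant protein genes are among its known targets. SFTPB is made as a proprotein, cut by proteases that include NAPSA and CTSH, and packed with lipid into lamellar bodies, where ABCA3 carries the lipid and LAMP3 sits in the limiting membrane. Lung adenocarcinomas keep these genes to differing extents, and NKX2-1 and NAPSA are used as stains for the diagnosis.

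Library totals ran from 25572691 to 38373679 estimated counts. TDP1 was at 25.1 to 28.1 CPM (counts scaled to the TMM-adjusted library size) in untreated WT and at 10.1 to 11.3 CPM in KO, and no KO library reached an untreated WT library. It was also low in DTC, at 12.7 to 15.7 CPM. The 7 epithelial identity genes (EPCAM, CDH1, KRT8, KRT18, KRT19, ESRP1, CLDN7) summed to 9368 to 9813 CPM in untreated WT libraries, against 4909 to 5521 in DTC, and the DTEC and KO ranges were 8149 to 10416 and 9999 to 10739, with 0 of 7 at the counting floor in any group. Abundant genes weigh most in this sum: mean KRT8 was 4015 CPM in untreated WT and 1869 in DTC, and KRT18 2930 and 1184. Of the 7 genes 0 were called higher and 5 lower in DTC. With total counts as the scaling 2 were higher and 4 lower. Over all tested genes 34.0% were called higher and 33.3% lower in DTC. DTC libraries had more genes with at least 1 count, 23429 to 24342 against 21044 to 21575 in untreated WT, and a larger mitochondrial share of counts, 5.02% ± 0.519 against 2.60% ± 0.147 (SD, n = 3). The part of these differences in the results on DTC was not tested.

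Promoter sequences are shown for the members that NKX2-1 is known to act on and that held one of 4 short motifs, to let the DNA around their start sites be read beside their counts. RefSeq promoters (GRCh38.p14, 250 bases before to 50 bases after a start) were matched for 8 of the 10 genes, 12 promoters in all, and those of SFTPC and LAMP3 were not used here. The motifs searched on both strands were CTCAAG and CACTTG (cores bound by NKX2 factors), TGTTTA (forkhead factors) and TGANTCA (AP-1). Among 35116 RefSeq promoters of this length 12.4%, 11.5%, 12.3% and 7.71% held them. The sequences run 5′ to 3′ on the minus strand of the genome, which is the gene's strand in each case, and capitals mark the matches. Promoter 2 of NKX2-1 (chr14:36519507-36519806) held CACTTG 147 bases before the start on the opposite strand, TGTTTA 130 bases before it and CTCAAG 23 bases after it. Promoters 1 (chr2:85668692-85668991) and 2 (chr2:85668150-85668449) of SFTPB each held TGANTCA, 29 bases before and 21 bases after the start. Promoter 1 of SFTPD (chr10:79949056-79949355) held TGANTCA 109 bases before the start. Promoter 1 of NAPSA (chr19:50369253-50369552) held CTCAAG 196 bases before and CACTTG 42 bases after the start, both on the opposite strand. It lies upstream of the NAPSA span given below, outside that span, whereas promoter 2 (chr19:50365590-50365889) overlaps the 5′ end of the span. The promoters of ABCA3, HOPX, AGER and AQP5, promoter 1 of NKX2-1 and promoter 2 of NAPSA held none of the 4 motifs. A match is a description of the letters and not a site of binding. Other forms of these motifs were not searched, so a promoter without a match can still hold sites for the same factors.
NKX2-1 promoter 2: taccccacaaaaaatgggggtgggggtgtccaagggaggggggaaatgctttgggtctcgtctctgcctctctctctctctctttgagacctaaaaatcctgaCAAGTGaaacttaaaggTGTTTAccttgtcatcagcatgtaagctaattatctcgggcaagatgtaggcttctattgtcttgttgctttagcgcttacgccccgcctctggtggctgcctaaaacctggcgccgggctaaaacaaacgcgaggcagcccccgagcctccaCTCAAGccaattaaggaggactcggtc
SFTPB promoter 1: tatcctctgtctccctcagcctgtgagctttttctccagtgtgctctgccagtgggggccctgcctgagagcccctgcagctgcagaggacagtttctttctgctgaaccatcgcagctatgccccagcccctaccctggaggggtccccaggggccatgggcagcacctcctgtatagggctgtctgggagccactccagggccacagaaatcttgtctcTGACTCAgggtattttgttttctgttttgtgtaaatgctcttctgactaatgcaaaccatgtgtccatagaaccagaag
SFTPB promoter 2: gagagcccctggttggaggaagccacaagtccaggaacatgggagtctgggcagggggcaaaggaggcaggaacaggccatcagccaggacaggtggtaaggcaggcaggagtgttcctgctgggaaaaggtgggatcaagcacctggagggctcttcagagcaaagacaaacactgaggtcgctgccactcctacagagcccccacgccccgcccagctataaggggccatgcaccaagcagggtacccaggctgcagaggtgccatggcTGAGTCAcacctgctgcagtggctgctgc
SFTPD promoter 1: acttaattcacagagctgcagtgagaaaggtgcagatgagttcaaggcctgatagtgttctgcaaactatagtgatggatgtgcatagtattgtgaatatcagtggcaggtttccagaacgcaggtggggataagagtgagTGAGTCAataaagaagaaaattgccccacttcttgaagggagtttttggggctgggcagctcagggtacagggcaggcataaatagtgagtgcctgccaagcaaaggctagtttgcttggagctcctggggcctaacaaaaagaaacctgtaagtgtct
NAPSA promoter 1: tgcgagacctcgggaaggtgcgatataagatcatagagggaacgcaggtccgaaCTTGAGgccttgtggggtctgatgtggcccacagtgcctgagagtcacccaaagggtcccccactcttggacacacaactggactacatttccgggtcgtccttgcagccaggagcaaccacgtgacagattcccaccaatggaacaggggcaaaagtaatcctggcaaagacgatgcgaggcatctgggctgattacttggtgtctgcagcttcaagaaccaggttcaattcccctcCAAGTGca

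The counting floor was set at 3 counts, which corresponded to 0.0824 to 0.115 CPM in the 12 libraries, and a gene was at the floor in a group when every library of that group had 3 counts or fewer. Of the 10 genes, 1 was at the floor in all 4 groups (SFTPC), 3 were at the floor in some groups (NKX2-1, AQP5 and SFTPD) and 6 were never at the floor by this rule. NKX2-1 was at the floor in untreated WT, DTEC and KO, AQP5 in DTC and KO, and SFTPD in KO. Without molecular identifiers on the reads, floors and intervals of this kind express counting error alone.

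**Figure D1:**
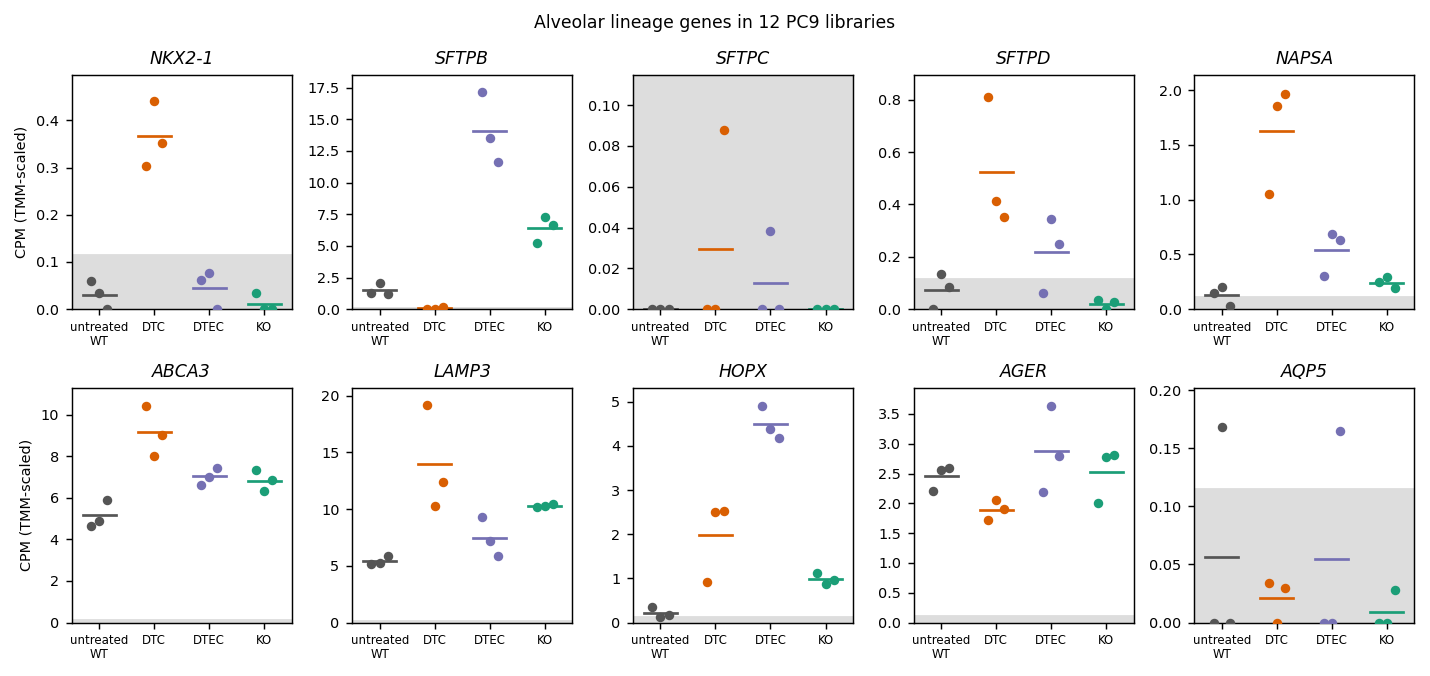
TMM-scaled CPM of the 10 alveolar lineage genes (vertical axis, scaled per gene) in each of the 12 libraries (points) by group, with the group mean as a line and values up to the highest value of 3 counts in grey. SFTPB is near 0 in DTC and between 11.7 and 17.1 CPM in DTEC, while SFTPC stays within the grey band in every library.

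NKX2-1 (ENSG00000136352, chr14:36516392-36521149, GRCh38, minus strand) was close to undetected in PC9 cells except after 7 days of erlotinib. Its counts were 2, 1 and 0 in untreated WT, 9, 15 and 12 in DTC, 2, 2 and 0 in DTEC and 1, 0 and 0 in KO. All 3 DTC libraries were above all 9 other libraries. Pooled and scaled to depth, the 36 counts in DTC against 3 in untreated WT gave a ratio of 12.02 (exact 95% interval 3.80 to 61.0), and the 4 counts in DTEC against 36 in DTC gave a ratio of 0.114 (0.0294 to 0.317). The edgeR quasi-likelihood test called the gene higher in DTC than in untreated WT (log2 change 3.42, SE 0.859, adjusted p 0.00276) and lower in DTEC than in DTC (-2.99, SE 0.823, adjusted p 0.00676). The DTC value was 4.27 without untreated WT replicate 1, and the DTEC against DTC value -2.40 without DTEC replicate 3, both still called. The DTEC and KO values did not pass the test against untreated WT (adjusted p 0.779 and 0.715). The highest level was 0.442 CPM, in DTC replicate 2. The gene passed the filter on low counts only through DTC, so its being higher there is partly fixed by the filter. NKX2-1 lies across 2 genes with which it shares exon bases in GENCODE 29, an antisense transcript among them, and these had 3 and 0 counts in all libraries together.

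A level this low has a background in these libraries. Of 12475 genes with a count somewhere and 3 counts or fewer in every untreated WT library, 991 (7.94%) had more than 3 counts in every DTC library, as NKX2-1 did. Among the 3260 protein-coding genes of that kind the number was 525 (16.1%). In DTEC the share was 2.55% of all such genes and 5.64% of the protein-coding ones, and in KO it was 0.465% and 1.23%.

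SFTPB (ENSG00000168878, chr2:85657314-85668741, GRCh38, minus strand) encodes the hydrophobic surfactant protein that is needed for lamellar body formation, and it moved most between the groups. The deposited counts, rounded, were 42, 62 and 41 in untreated WT, 1, 1 and 5 in DTC, 563, 354 and 424 in DTEC and 149, 224 and 241 in KO. These are 1.25, 2.09 and 1.18 CPM in untreated WT, 0.034, 0.029 and 0.147 CPM in DTC, 17.1, 13.5 and 11.7 CPM in DTEC and 5.23, 7.25 and 6.66 CPM in KO. No 2 groups overlapped, in the order DTC, untreated WT, KO and DTEC.

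After 7 days of erlotinib SFTPB stood at 4.63% of its untreated level, from 1.51 ± 0.505 to 0.070 ± 0.066 CPM (SD, n = 3; log2 fold change -4.32, SE 0.453, edgeR quasi-likelihood adjusted p 1.09e-06). After 28 days it was at 14.1 ± 2.79 CPM, 9.39-fold above untreated WT (3.23, SE 0.262, adjusted p 2.62e-07). The difference between 28 and 7 days was 187-fold in the fit (log2 fold change 7.55, SE 0.391, adjusted p 2.86e-09), with 1 to 5 counts per library on the lower side. In the untreated KO line SFTPB was at 6.38 ± 1.04 CPM, 4.25-fold above untreated WT (2.09, SE 0.260, adjusted p 0.000398). DTC replicate 3 had 5 of the 7 counts of its group. Without it the log2 fold change was -5.37 for DTC against untreated WT and 8.62 for DTEC against DTC. Without DTC replicate 1 or 2 the DTC value was -3.99 or -3.88, and all of these were called.

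SFTPC (ENSG00000168484, chromosome 8) encodes the surfactant protein that is most restricted to alveolar type 2 cells. It had 3 counts in DTC replicate 3, 1 count in DTEC replicate 2 and 0 counts in the other 10 libraries. It did not pass the filter on low counts, and no difference between groups was detectable at this depth.

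SFTPD (ENSG00000133661, chr10:79937740-79982614, GRCh38, minus strand) encodes a secreted collectin of innate defence. Its counts were 0, 4 and 3 in untreated WT, 24, 14 and 12 in DTC, 2, 9 and 9 in DTEC and 1, 0 and 1 in KO. The DTC libraries were above all others, while DTEC overlapped untreated WT. The pooled ratio of DTC over untreated WT was 7.15 (exact 95% interval 3.23 to 18.7), from 50 counts against 7, and the gene was called higher (log2 fold change 2.79, SE 0.790, adjusted p 0.00614), with a value of 3.48 without untreated WT replicate 2. The log2 fold changes of 1.51 in DTEC (adjusted p 0.153) and -1.62 in KO (adjusted p 0.559) against untreated WT, and of -1.27 in DTEC against DTC (adjusted p 0.129), did not pass the test. SFTPD also passed the filter on low counts only through DTC, so its being higher there is partly fixed by the filter. SFTPD shares 78 exon bases with BMS1P21, which had 43 counts over all libraries.

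NAPSA (ENSG00000131400, chr19:50358477-50365830, GRCh38, minus strand) encodes the aspartic protease napsin A. Its counts were 5, 6 and 1 in untreated WT, 31, 63 and 67 in DTC, 10, 18 and 23 in DTEC and 7, 9 and 7 in KO. DTC stood above DTEC and DTEC above untreated WT without overlap, and KO overlapped untreated WT in scaled values. The mean rose from 0.127 ± 0.089 CPM to 1.62 ± 0.501 CPM in DTC (SD, n = 3; 12.7-fold, log2 fold change 3.67, SE 0.530, adjusted p 2.62e-05). It was 0.541 ± 0.207 CPM in DTEC, 4.24-fold above untreated WT (2.08, SE 0.556, adjusted p 0.006) and below DTC (-1.59, SE 0.446, adjusted p 0.00768). In KO the log2 fold change was 0.94 (adjusted p 0.47). NAPSA passed the filter on low counts only through DTC and DTEC, so its being higher there is partly fixed by the filter. NAPSA lies inside the span of NR1H2, a gene of the opposite strand with 29249 counts, and the exons of the pair share 0 bases in GENCODE 29.

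ABCA3 and LAMP3 had the highest counts among the surfactant genes in untreated cells. ABCA3 (ENSG00000167972, chr16:2275881-2340746, GRCh38, minus strand), the lipid transporter of lamellar bodies, had 4.66, 4.89 and 5.91 CPM in untreated WT, 10.4, 8.01 and 9.03 CPM in DTC, 6.64, 7.03 and 7.45 CPM in DTEC and 7.34, 6.31 and 6.86 CPM in KO. All 9 libraries of the other groups were above all 3 untreated WT libraries. The change was 1.77-fold in DTC (log2 fold change 0.83, SE 0.144, adjusted p 0.000145). The DTEC change was 1.36-fold (0.45, SE 0.144, adjusted p 0.0176), and this call was lost without untreated WT replicate 1 (adjusted p 0.0662) or 2 (0.0632) or DTEC replicate 3 (0.0626). The KO value of 0.41 did not pass the test over all 12 libraries (adjusted p 0.152) and passed it in a fit of the 6 compared libraries alone (adjusted p 0.0415). DTEC was below DTC (-0.38, SE 0.142, adjusted p 0.0346), and without DTC replicate 1 or 3 or DTEC replicate 1 or 2 that adjusted p was between 0.0574 and 0.0971.

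LAMP3 (ENSG00000078081, chr3:183122213-183163839, GRCh38, minus strand), a lysosome-associated membrane protein that is also found in mature dendritic cells, had 5.17, 5.23 and 5.85 CPM in untreated WT and 19.1, 10.3 and 12.3 CPM in DTC. In DTEC it had 9.32, 7.18 and 5.85 CPM, with the lowest library level with the highest untreated one, and in KO 10.2, 10.2 and 10.5 CPM. DTC was 2.56-fold above untreated WT (log2 change 1.36, SE 0.211, adjusted p 5.4e-05), and 1.10 on the log2 scale without DTC replicate 1. DTEC did not pass the test (0.46, SE 0.213, adjusted p 0.0856) and was below DTC (-0.90, SE 0.207, adjusted p 0.00212). KO was 1.90-fold above untreated WT (0.93, SE 0.212, adjusted p 0.0237), with no overlap. That call was lost when any 1 of the 6 libraries was left out, with adjusted p from 0.0598 to 0.0996, while the log2 fold change stayed between 0.91 and 1.01.

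HOPX (ENSG00000171476, chr4:56647988-56681899, GRCh38, minus strand) encodes a small homeodomain protein without DNA binding of its own, which marks type 1 cells and is also found outside the lung. It had 0.358, 0.135 and 0.173 CPM in untreated WT, 0.913, 2.502 and 2.52 CPM in DTC, 4.90, 4.39 and 4.18 CPM in DTEC and 1.12, 0.874 and 0.968 CPM in KO. Untreated WT was below each other group without overlap, and DTEC was above all of them. The rise was 8.74-fold in DTC (log2 fold change 3.13, SE 0.419, adjusted p 1.26e-05) and 19.7-fold in DTEC (4.30, SE 0.414, adjusted p 1.27e-06), and DTEC exceeded DTC by 2.26-fold (1.17, SE 0.327, adjusted p 0.00727). DTC replicate 1 was the low library of its group, and without it the log2 fold change of DTC was 3.498. In KO the rise was 4.34-fold (2.12, SE 0.437, adjusted p 0.0131). That call was lost without untreated WT replicate 2 (adjusted p 0.0543) or 3 (0.0652).

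AGER (ENSG00000204305, chr6:32180968-32184324, GRCh38, minus strand), the receptor for advanced glycation end products, is abundant on type 1 cells. It had 2.21, 2.56 and 2.60 CPM in untreated WT, 1.72, 2.06 and 1.91 CPM in DTC, 2.19, 3.63 and 2.80 CPM in DTEC and 2.00, 2.78 and 2.82 CPM in KO. Its log2 fold changes lay between -0.37 and 0.59 in the 4 comparisons, the narrowest range of the 8 tested genes, and no comparison with untreated WT passed the test (adjusted p 0.16 in DTC, 0.42 in DTEC and 0.942 in KO). Each DTC library was below each untreated one, with a log2 fold change of -0.37 (SE 0.226) that was -0.02 with library totals alone as the scaling. DTEC was called above DTC (0.59, SE 0.225, adjusted p 0.037), a call that was lost without DTC replicate 1, 2 or 3 or DTEC replicate 2 or 3 (adjusted p 0.0651 to 0.202). It was also lost with upper quartile scaling (adjusted p 0.131), total counts (0.141), no filter (0.074) and only the 6 compared libraries (0.0856), and it held in 4 of 13 alternatives.

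AQP5 (ENSG00000161798, chr12:49961870-49965681, GRCh38, plus strand), a water channel of type 1 cells, had 5 counts in untreated WT replicate 2, 6 in DTEC replicate 3, 1 each in DTC replicates 1 and 3 and KO replicate 3, and 0 in the other 7 libraries. It did not pass the filter on low counts. The pooled ratio of DTC over untreated WT was 0.401 with an exact 95% interval of 0.0381 to 2.45, so no difference was detectable at this depth.

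Levels can be set beside each other only per length, here as CPM per kilobase of exon. In untreated WT the order was LAMP3 (1.42 ± 0.0998, SD, n = 3), AGER (1.18 ± 0.103), ABCA3 (0.660 ± 0.0854) and SFTPB (0.367 ± 0.123), with the other 6 genes at 0.0559 or less. In DTC LAMP3 led (3.65 ± 1.21), ABCA3 (1.17 ± 0.157) and AGER (0.913 ± 0.0811) followed, and SFTPB fell to the eighth place at 0.017 ± 0.0162. In DTEC SFTPB led at 3.43 ± 0.679, before LAMP3 (1.95 ± 0.458) and AGER (1.38 ± 0.347), and the libraries of the latter pair overlapped. In KO LAMP3 (2.70 ± 0.0420) led before SFTPB (1.55 ± 0.253) and AGER (1.22 ± 0.223), and here SFTPB and AGER overlapped. The other neighbours named did not overlap, and these orders were not tested.

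**Figure D2:**
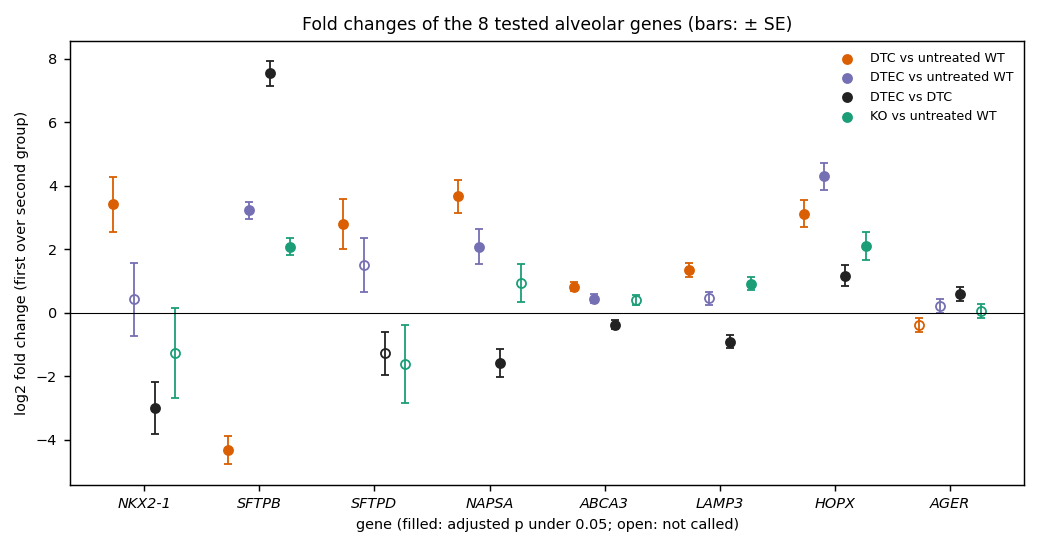
Log2 fold change (vertical axis, first over second group, bars ± SE) of the 8 tested genes in 4 comparisons, filled where the adjusted p was under 0.05. SFTPB lies at -4.32 in DTC and at 3.23 in DTEC against untreated WT, and HOPX lies above 0 in all 4 comparisons.

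Of the 10 genes, 8 passed the filter on low counts. NKX2-1 and SFTPD passed it only through DTC, NAPSA only through DTC and DTEC, and HOPX, with 1 of 3 untreated WT libraries above its limit, through DTC, DTEC and KO. Their being higher there is partly fixed by the filter, so counts and medians over the 8 genes are a description and support nothing. ABCA3, LAMP3 and AGER were above its limit of 0.307 CPM in all libraries of all 4 groups. In DTC against untreated WT 6 genes were called higher and 1 lower, where 67.3% of 17115 tested genes were called, 34.0% higher and 33.3% lower. In DTEC against untreated WT 4 were called higher and 0 lower, where 52.3% of all tested genes were called, 26.0% higher and 26.3% lower. In DTEC against DTC 3 were called higher and 4 lower, where 55.4% of all tested genes were called, 28.8% higher and 26.6% lower. In KO against untreated WT 3 were called higher (SFTPB, LAMP3 and HOPX) and 0 lower, where 4.31% of all tested genes were called, 2.76% higher and 1.55% lower. The counts of 0 lower genes in DTEC and KO were also 0 at an unadjusted p under 0.05 in edgeR and in DESeq2's Wald test. The median log2 fold change of the 8 genes was 2.07 in DTC, 0.99 in DTEC and 0.67 in KO, beside 0.06, 0.02 and -0.01 over all tested genes. DTC, DTEC and KO were compared with the same 3 untreated WT libraries, so these values are not independent of each other.

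The genes whose log2 CPM ran most like that of a member over the 12 libraries were taken among 12226 tested genes with a mean of at least 1 CPM, and the points share 4 groups. For SFTPB they were DMBT1 (Pearson r 0.985), PLIN4 (0.979) and SLC1A3 (0.978). DMBT1, a secreted glycoprotein of mucosal surfaces that is known to bind SFTPD, was at 3.499 CPM in untreated WT, 0.162 CPM in DTC, 63.3 CPM in DTEC and 33.8 CPM in KO. PLIN4, a lipid droplet protein, was at 9.004, 3.63, 20.6 and 15.6 CPM in the same order, and SLC1A3, a glutamate transporter, at 60.7, 14.3, 131 and 99.5 CPM. For HOPX they were CTSH (r 0.977), LYPD6B (0.968) and ATP8B3 (0.966). CTSH was at 35.7, 88.9, 127 and 58.7 CPM in untreated WT, DTC, DTEC and KO. For ABCA3 they were GORASP1 (0.956), PAPSS2 (0.952) and NCAM1 (0.950), for LAMP3 ABAT (0.960), SEMA5A (0.937) and STOX2 (0.937). For AGER the values were lower, with JRK (0.833), CBLC (0.832) and CAPN8 (0.827). NKX2-1, SFTPD and NAPSA were under a mean of 1 CPM and were not searched.

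**Figure D3:**
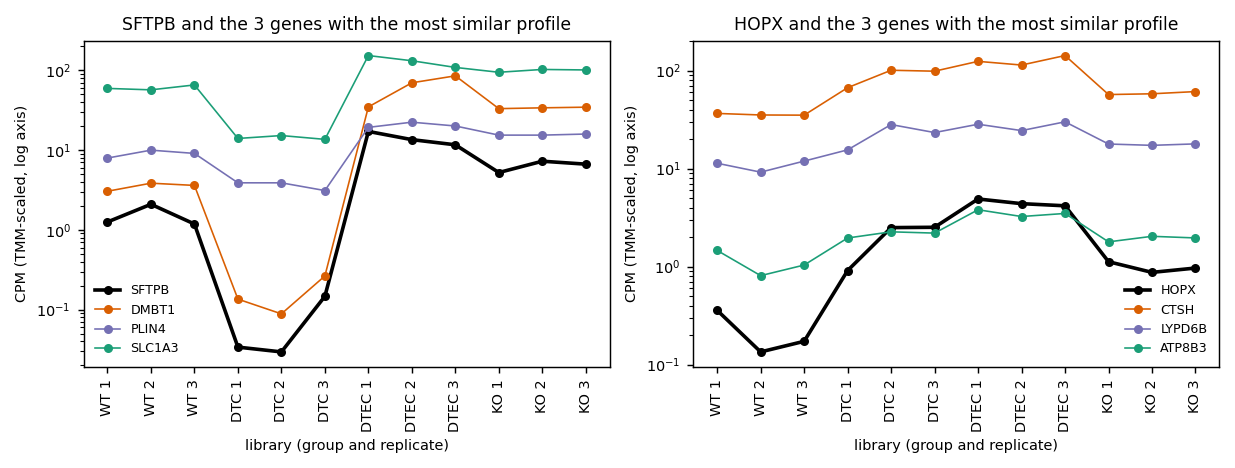
TMM-scaled CPM on a log axis (vertical) in the 12 libraries (horizontal) of SFTPB and HOPX (black) and of the 3 genes with the highest Pearson r to each (colours). SFTPB and DMBT1 are lowest in the 3 DTC libraries, whereas HOPX and CTSH are lowest in untreated WT.

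The other genes of the type 2 cell were called in both directions in DTC. Of 22 listed genes 12 were tested, and 6 were called higher and 5 lower in DTC, 5 higher and 1 lower in DTEC, and 2 higher in KO, with the other 10 not called. Over all tested genes 67.3% were called in DTC, 52.3% in DTEC and 4.31% in KO, so the 6 of 12 in DTEC stood near the background. The median log2 fold change was 0.57, 0.34 and 0.29 in these comparisons, and 0.57, 0.09 and 0.28 with SFTPA2, which had no count in untreated WT, set to its bound against the floor. MUC1, a membrane mucin of type 2 cells, rose from 2.25 ± 0.153 CPM to 27.5 ± 3.87 CPM in DTC (SD, n = 3; log2 fold change 3.61, adjusted p 7.11e-11), and was at 37.7 ± 0.393 CPM in DTEC (4.06, adjusted p 1.02e-10). It rose in KO as well, to 7.70 ± 0.531 CPM (1.77, adjusted p 4.5e-06). The other gene of this list called in KO was CTSH, which is also in the protease list below. SCD is both in this list and in the surfactant lipid list, so the lists are not independent. ETV5, a transcription factor that maintains type 2 cells and a known target of MAPK signalling, fell from 100.2 ± 6.56 to 20.0 ± 5.13 CPM in DTC (-2.33, adjusted p 2.41e-08). It was at 113.6 ± 21.0 CPM in DTEC (against DTC 2.51, adjusted p 3.49e-08). SFTPA2, a surfactant collectin, had 0, 0 and 0 counts in untreated WT and 28, 28 and 44 counts in DTC, which is at least 11.04-fold higher against a floor of 3 counts per library. Of the 3260 protein-coding genes at the floor in untreated WT, 525 (16.1%) were likewise over 3 counts in every DTC library. SFTPA2 passed the filter on low counts only through DTC, so its being higher there is partly fixed by the filter. SFTPA2 and SFTPA1 are near-identical and may share reads. SLC34A2, the phosphate carrier of type 2 cells, had 0 counts in all 12 libraries, as did PDPN and CLDN18 of the type 1 list.

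Of 19 other type 1 genes 17 were tested, with 12 called higher and 2 lower in DTC, 11 higher and 3 lower in DTEC, 3 higher and 12 lower in DTEC against DTC, and 0 called in KO by edgeR or DESeq2 (3 at an unadjusted p under 0.05 in edgeR). Over all tested genes 34.0% were higher and 33.3% lower in DTC, 26.0% and 26.3% in DTEC, and 28.8% and 26.6% in DTEC against DTC. Their median log2 fold change was 1.82, 0.87, -0.93 and 0.05 in that order. ANKRD1, a target of YAP and TEAD, had 3.04 ± 0.304 CPM in untreated WT, 163.7 ± 8.62 CPM in DTC (5.75, adjusted p 1.69e-09) and 27.5 ± 11.9 CPM in DTEC (3.18, adjusted p 5.74e-07). CLIC3, a chloride channel family protein, had 0, 3 and 2 counts in untreated WT and 52, 174 and 133 in DTC (6.03, adjusted p 1.81e-05). It passed the filter on low counts only through DTC, so its being higher there is partly fixed by the filter. The same limit holds for any listed gene that did not pass through untreated WT. Counts and medians over the lists are therefore a description. COL4A4, a basement membrane collagen chain, was at 1.17 ± 0.168 CPM in untreated WT and 4.68 ± 1.42 CPM in DTEC (2.00, adjusted p 1.66e-05). COL4A3, its partner chain, fell from 5.18 ± 0.518 CPM in DTC to 0.592 ± 0.345 CPM in DTEC (-3.09, adjusted p 8.1e-06).

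Among 20 tested partners and regulators of NKX2-1 (of 22 listed), 7 were called higher and 12 lower in DTC, 7 higher and 4 lower in DTEC, 13 higher and 4 lower in DTEC against DTC, and 2 higher in KO. Over all tested genes 67.3%, 52.3%, 55.4% and 4.31% were called, so the 11 of 20 in DTEC stood near the background. With total counts or the upper quartile as the scaling 7 were higher and 9 lower in DTC. The medians were -0.51, 0.18, 0.57 and 0.09. FOXA1, a forkhead factor that acts with NKX2-1, fell from 67.5 ± 6.53 to 24.7 ± 1.87 CPM in DTC (-1.45, adjusted p 2.37e-08), in the group where NKX2-1 was detected. CEBPB, a C/EBP factor, fell from 82.5 ± 10.4 to 31.6 ± 6.24 CPM in DTC (-1.39, adjusted p 8.52e-07). FOXA2 was not tested because of its low counts. In DTEC ELF3, an epithelial ETS factor, rose from 95.1 ± 2.81 to 238 ± 8.80 CPM (1.33, adjusted p 2.74e-08) and TFCP2L1 fell from 55.4 ± 2.12 to 18.4 ± 2.40 CPM (-1.59, adjusted p 6.11e-06). In KO ELF5 was at 5.52 ± 0.157 against 3.20 ± 0.0566 CPM (0.78, adjusted p 0.0058) and ELF3 at 129.7 ± 4.18 CPM (0.45, adjusted p 0.00587). Against DTC, FOXP1 (1.66, adjusted p 1.39e-06) and NFIA (1.63, adjusted p 4.88e-07) were higher in DTEC.

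**Figure D4:**
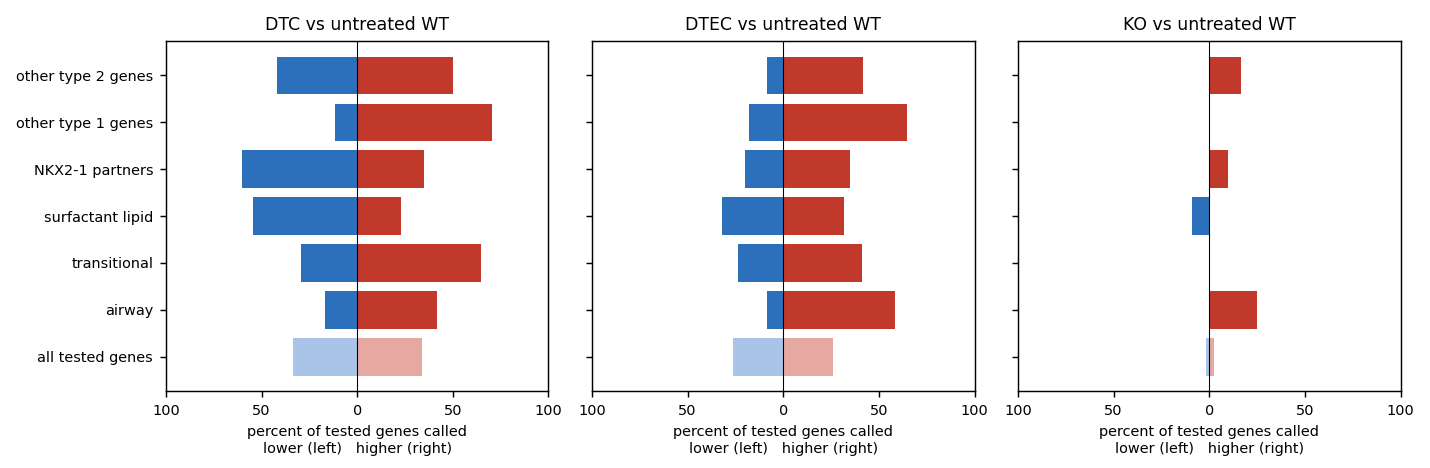
Percent of tested genes called lower (left of 0, blue) and higher (right of 0, red) in 6 gene lists and over all tested genes (pale bars, bottom row), for DTC, DTEC and KO against untreated WT. In DTC the other type 1 genes were mostly higher, with 12 of 17 called so, and of the 22 surfactant lipid genes 12 were called lower with this TMM scaling and 9 with total counts.

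The split of the surfactant lipid genes in DTC depended on the scaling. Of 22 tested genes of lipid synthesis and lamellar body handling (24 listed), 5 were called higher and 12 lower in DTC, 7 higher and 7 lower in DTEC, 13 higher and 3 lower in DTEC against DTC, and 2 lower in KO. In DTC 34.0% of all tested genes were higher and 33.3% lower, and in DTEC 26.0% and 26.3%. In DTEC against DTC these shares were 28.8% and 26.6%, and in KO 2.76% and 1.55%. With total counts or the upper quartile as the scaling 9 lipid genes were higher and 9 lower in DTC, with medians of 0.02 and -0.04, and 9 or 10 were higher and 5 lower in DTEC against DTC. With TMM the medians were -0.33, 0.08, 0.51 and 0.01. SREBF1, the regulator of fatty acid synthesis, fell from 201 ± 37.1 to 44.1 ± 7.42 CPM in DTC (-2.19, adjusted p 4.62e-08), and ELOVL6, a fatty acid elongase, from 90.3 ± 2.33 to 20.3 ± 2.10 CPM (-2.15, adjusted p 1.84e-09). In DTEC SCD, the stearoyl-CoA desaturase, stood at 1172 ± 13.5 against 510 ± 8.89 CPM in untreated WT (1.20, adjusted p 2.25e-06) and ADGRF5, a receptor that limits surfactant, at 692 ± 38.5 against 201 ± 9.93 CPM (1.78, adjusted p 8.74e-07). SCD was at 232 ± 48.6 CPM in DTC, and SREBF1 was at 188 ± 32.3 CPM in DTEC. In KO LPIN1 (-1.02, adjusted p 0.000298) and CHKA (-0.32, adjusted p 0.0448) were lower.

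Of 6 proteases listed around the SFTPB proprotein, NAPSA among them, 4 were tested. In DTC 3 were called higher, in DTEC all 4, and in KO 1, and none of the 4 was lower at an unadjusted p under 0.05 in edgeR. The shares of all tested genes called higher were 34.0%, 26.0% and 2.76%. The medians were 0.87, 1.32 and 0.58. NAPSA passed the filter on low counts only through DTC and DTEC, so its part in the DTC and DTEC counts is partly fixed by the filter. In DTEC against DTC 2 of the 4 were called higher and 1, NAPSA, lower. There 28.8% of all tested genes were higher and 26.6% lower. CTSH was higher in DTC (1.32, adjusted p 1.22e-06), DTEC (1.83, adjusted p 1.75e-07) and KO (0.72, adjusted p 0.00903), so in DTC it rose while the transcript of its substrate fell. CTSB rose in DTC (0.42, adjusted p 0.0074) and CTSD in DTEC (0.80, adjusted p 0.00176). PGC, which is gastric and also made by type 2 cells, had 14, 7 and 18 counts in DTC and at most 1 count in an untreated WT library. Of the protein-coding genes at the floor in untreated WT, 16.1% were over 3 counts in every DTC library, as PGC was.

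Genes of neighbouring fates were counted for the same libraries. All 17 genes of the transitional state between type 2 and type 1 cells were tested. In DTC 11 were called higher and 5 lower, in DTEC 7 higher and 4 lower, and in KO 0 by edgeR (4 at an unadjusted p under 0.05) and 2 by DESeq2. With total counts or the upper quartile as the scaling 11 were higher and 2 lower in DTC. Of all tested genes 67.3% were called in DTC, 52.3% in DTEC and 4.31% in KO, which also serves for the airway genes. NUPR1, a stress-induced chromatin protein, rose from 0.209 ± 0.132 to 27.1 ± 6.76 CPM in DTC (7.02, adjusted p 5.85e-09). It did not pass the filter on low counts through untreated WT, so its being higher in DTC is partly fixed by the filter. CDKN1A, the cell cycle inhibitor, fell from 58.3 ± 2.34 CPM in DTC to 5.69 ± 0.672 CPM in DTEC (-3.36, adjusted p 9.53e-11). Of 18 airway genes 12 were tested, with 5 called higher and 2 lower in DTC, 7 higher and 1 lower in DTEC and 3 higher in KO, and the 7 of 12 called in DTC were below the share over all genes. MUC5B, a secreted airway mucin, was lowest in DTC and highest in DTEC among the wild-type groups, as SFTPB was, with 26.2 ± 7.37 CPM in untreated WT, 0.251 ± 0.124 CPM in DTC (-6.66, adjusted p 6.64e-09) and 217 ± 63.3 CPM in DTEC (3.05, adjusted p 4.82e-07). BPIFB1, a secreted airway defence protein, rose in all 3 comparisons with untreated WT, by 3.67 in DTC (adjusted p 1.15e-09), 3.83 in DTEC (adjusted p 3.6e-09) and 3.40 in KO (adjusted p 2.42e-07).

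Of 20 gut and stomach genes, the fate that lung adenocarcinoma cells without NKX2-1 are known to take on in mice, 6 were tested. In DTC 3 were called higher and 1 lower, in DTEC 1 higher and 3 lower, and in KO 1 higher. The 4 of 6 called in DTC stood at the 67.3% called over all genes. In DTEC 52.3% and in KO 4.31% of all tested genes were called. CTSE, a gastric protease, rose from 1.77 ± 0.144 to 10.6 ± 2.98 CPM in DTC (2.58, adjusted p 2.66e-06), and TFF1, a gastric peptide, fell from 3.11 ± 0.547 to 0.936 ± 0.124 CPM in DTC (-1.72, adjusted p 3.51e-05) and to 0.161 ± 0.0746 CPM in DTEC (-4.20, adjusted p 1.58e-07). AGR2, a disulfide isomerase of mucus-making cells, stood at 6.29 ± 0.713 CPM in untreated WT, 131.7 ± 24.6 CPM in DTEC (4.39, adjusted p 8.25e-09) and 11.3 ± 0.753 CPM in KO (0.85, adjusted p 0.0391).

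Markers of other cell types moved in some groups. The 7 fibroblast markers summed to 7.99 to 8.91 CPM in untreated WT libraries, against 55.0 to 57.8 in DTC, and the DTEC and KO ranges were 11.1 to 14.1 and 13.5 to 15.1, nearly all of it COL1A1, while COL1A2, COL3A1 and DCN were at the floor in all 4 groups. The 7 leukocyte markers summed to 28.0 to 34.7 CPM in untreated WT libraries, against 48.5 to 65.6 in DTC, and the DTEC and KO ranges were 36.1 to 42.1 and 27.6 to 30.7, with CD3E and CD163 at the floor in all 4 groups. The 6 endothelial markers summed to 58.5 to 61.4, 42.3 to 50.2, 122 to 142 and 75.8 to 77.2 CPM in the same order, with PECAM1 at a mean of 32.0, 8.77, 92.1 and 48.4 CPM and CLDN5 at the floor in all 4 groups. The part of these genes in the results on the alveolar genes was not tested.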

How the data were processed

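The members and gene lists were chosen with earlier results of these data known. The authors deposited expected counts (estimated read counts per gene, not scaled to depth), 1 table for 12 libraries of polyadenylated RNA made with the TruSeq Stranded mRNA kit and read as 101 bp pairs, per the labels. The submitters' processing notes name RSEM 1.3.1, Bowtie2 2.5.2, DESeq2 1.40.2 and GRCh38. The strand setting of the counting and the annotation release are not given in the sources used here, and coordinates describe the GENCODE 29 gene with the same identifier. Symbols were found for 62700 of 62754 identifiers.

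Rounded values were fitted with edgeR 4.0.16 (R 4.3.3): filterByExpr by group (17115 genes kept), TMM scaling, 1 mean per group over all 12 libraries and robust quasi-likelihood F tests, with Benjamini-Hochberg adjustment over all tested genes and a call at an adjusted p under 0.05. The fit was tested on simulated data. Library totals were 25572691 to 38373679, and 26179496 to 36388369 after TMM scaling, over which 3 counts equal 0.0824 to 0.115 CPM. Alternatives were DESeq2 1.42.0 (its size factors, and its Wald test), upper quartile and total-count scaling, no filter, only the 6 compared libraries, a replicate block and leaving out each replicate. Named genes were all 10 members, TDP1, the 2 called members of each other list with the largest change and a mean of at least 1 CPM in the compared libraries, and the 3 protein-coding genes with the highest correlation to each member. Not every gene that met this rule is named above (CCN2, KRT17 and TP63 are not). Some comparisons of named genes, such as CTSE and AGR2 in DTEC against DTC, were also left out. Genes named outside this rule (SFTPA1, SFTPA2, SLC34A2, PDPN, CLDN18, FOXA2, PGC, and the marker genes) were chosen after their values were seen.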

Additional observations from a re-analysis of the deposited data

Results flagged for a closer look

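For 7 of the 8 tested genes the change at 28 days differed from that at 7 days of erlotinib, by the edgeR quasi-likelihood test of DTEC against DTC with adjustment over all tested genes. On the log2 scale DTEC minus DTC was 7.55 for SFTPB (adjusted p 2.86e-09), 1.17 for HOPX (0.00727) and 0.59 for AGER (0.037). It was -2.99 for NKX2-1 (0.00676), -1.59 for NAPSA (0.00768), -0.90 for LAMP3 (0.00212) and -0.38 for ABCA3 (0.0346). For SFTPB the changes against untreated WT had opposite signs at the 2 times, and for the others called in both they had the same sign. This count of 7 was 5 to 6 when any 1 library was left out and 5 to 7 in the other alternatives, since AGER was past the threshold in 4 and ABCA3 in 7 of 13. Over all tested genes 55.4% were called in this comparison. The 7 genes are those called by this same test, so their number is a description and supports nothing. NKX2-1 and SFTPD passed the filter on low counts only through DTC, so lower values in DTEC are partly fixed by it.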

How the results depend on the processing

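Of 410 member values under the alternatives, 372 kept their direction and side of the threshold, 27 lost a call, 6 gained one and 5 changed sign. SFTPB was called in the same direction in all 13 alternatives of each of the 4 comparisons, and NKX2-1, SFTPD, NAPSA, ABCA3, LAMP3 and HOPX in all 13 for DTC. For NKX2-1, SFTPD, NAPSA and HOPX, which did not pass the filter through untreated WT, being higher in DTC is partly fixed by the filter. The sign changes were of values that were not called: AGER in KO (-0.0162 to 0.21 without a replicate, with -0.00656 without untreated WT replicate 1 and -0.0117 without KO replicate 3) and NKX2-1 in DTEC (-0.127 to 1.26, with -0.0600 without DTEC replicate 2). The KO comparison depended most on the processing. Its 738 called genes became 1147 without the filter, 1148 with DESeq2, 2656 with only the 6 compared libraries and 321 to 426 without a replicate, and its 3 called members became 1 to 2 without a replicate. ABCA3 in DTEC was also lost without the filter (adjusted p 0.0527), and LAMP3 in DTEC was gained in 5 of 13 alternatives. Scaling by total counts raised the median log2 fold change over all genes by 0.355 in DTC (with 68.4% of calls higher, from 50.5%), 0.168 in DTEC (63.7%) and 0.067 in KO (78.8%), and shifted it by -0.187 in DTEC against DTC (37.4%). The DTC calls of the 7 members held under it. With the replicate number as a block the genes called were 11775 in DTC, 9255 in DTEC, 9732 in DTEC against DTC and 887 in KO, and it changed no member's call. By the criterion used the numbers were not taken as pairs, since 4 of 18 same-number correlations were over 0.1 (range -0.030 to 0.179). Of the 18, 16 exceeded the mean correlation with the other numbers. As libraries were centred on their group mean, that comparison nearly restates the sign of the correlation, and the 18 values are not independent. It is at most a hint from the data and not the design. Depth limits SFTPC and AQP5 throughout, NKX2-1 outside DTC, SFTPD and NAPSA in untreated WT and KO, and SFTPB in DTC.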
